A study of Mus musculus with 6 samples.

Results

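Extracellular proteases and their inhibitors were followed in small intestinal organoids, in which doxycycline switched on the reprogramming factors Oct4 (gene Pou5f1), Sox2, Klf4 and Myc. The genes were chosen by symbol and by level. Symbols of the Mmp, Adam, Adamts, Klk, Prss, Tmprss, Timp and Serpin families, together with Plau, Plat and Plaur, were taken if their mean was at least 1 TPM in at least 1 group. TPM is a share of all transcripts, corrected for transcript length and scaled to the same total in each library. A matching symbol was held by 245 of the 55416 genes in the deposited files, and 41 of these reached the level. They comprised 3 matrix metalloproteinases, 3 TIMPs, 5 ADAMs, 2 ADAMTS proteases, 2 genes of plasminogen activation, 5 kallikreins, 9 Prss genes, 2 Tmprss genes, 5 clade B serpins, 2 clade A serpins and 3 other serpins. The remaining 204 matching genes stayed under 1 TPM in every group, and 92 of them had no count in any library. Just inside the limit stood Timp2 at 1.03 TPM, Serpinh1 at 1.04 TPM and Adamts10 at 1.08 TPM in their highest group, and just outside it Prss33 at 0.885 TPM and Adam22 and Mmp23 at 0.845 TPM.

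All organoids came from intestinal epithelial cells of mice aged 4 to 8 weeks that were Tg/Tg for Rosa26-rtTA, the doxycycline-dependent transactivator, and Tg/Tg for Col1A1-TetO-OSKM, the inducible cassette of the factors. The control cultures therefore carried both transgenes too. Control organoids have no dose in their labels. Doxycycline was given for 3 days, at 0.1 µg/ml to a low-dose and at 0.5 µg/ml to a high-dose group. Each group held 2 libraries, called biological replicates in the series description, which does not say whether they came from separate mice. The p-values therefore measure only the spread between these libraries. No group received doxycycline without the factor cassette, so effects of the drug and of the factors cannot be told apart. In every group the gel was removed with TrypLE, a trypsin-like enzyme, before RNA isolation.

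Extracellular proteases cut matrix proteins, receptors and secreted factors, and most are made as inactive precursors that other proteases activate. Metalloproteinases of the MMP and ADAM families are held in check by TIMPs, and serine proteases by serpins, which trap the enzyme in a covalent complex. In the small intestine such enzymes process the antimicrobial peptides of Paneth cells, shed growth factors and Notch from the cell surface, and regulate sodium channels and the epithelial barrier. Not every gene of the families acts outside the cell or as an enzyme. Most clade B serpins act inside cells, Serpinh1 is a collagen chaperone of the endoplasmic reticulum, Plaur is a receptor, and Prss23os is by its name an antisense transcript of Prss23.

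The induced genes followed the labels. Pou5f1 (ENSMUSG00000024406) had 0.32 and 0.14 TPM in control, 132 and 140.1 TPM at 0.1 µg/ml and 458 and 488 TPM at 0.5 µg/ml, and the other factors rose in the same order, with Klf4 at 13.7 and 11.9 TPM in control, 138 and 136 TPM at 0.1 µg/ml and 429.5 and 438 TPM at 0.5 µg/ml. Library totals ranged from 45289760 to 72547738 expected counts, and mitochondrial genes took 7.19 to 8.16% of the counts. All 10 markers of intestinal epithelium reached 1 TPM in a group, with a summed level of 4614 to 6789 TPM over the 6 libraries. The summed fibroblast markers stood at 0.33 and 0.47 TPM in control, 0.48 and 0.37 TPM at 0.1 µg/ml and 1.61 and 2.02 TPM at 0.5 µg/ml, with Col3a1 listed at 0 throughout. Most of the level at 0.5 µg/ml was Dcn, at 1.02 and 1.44 TPM there and 0 in control, while Pdgfrb averaged 0.05 TPM at 0.5 µg/ml and 0.24 TPM in control. Summed markers came to at most 1.41 TPM in any library for macrophages and lymphocytes (Adgre1 and C1qb among those listed at 0), endothelium (Cdh5, Kdr and Emcn at 0), mast cells (Cpa3, Ms4a2 and Fcer1a at 0) and neutrophils (Mpo, Elane, Ctsg and Camp at 0). The pancreatic acinar list summed to 5.77 to 6.94 TPM in control and 0.66 to 0.83 TPM at 0.5 µg/ml, nearly all of it Ctrb1, with Cpb1, Pnlip, Amy2a5 and Cela2a at 0. The hepatocyte list summed to 18.6 to 48.2 TPM over the libraries, nearly all of it Ttr and Ahsg, which moved in opposite directions: Ttr (ENSMUSG00000061808) had 31.8 and 44.1 TPM in control, 13.3 and 13.9 TPM at 0.1 µg/ml and 2.09 and 3.29 TPM at 0.5 µg/ml, and Ahsg (ENSMUSG00000022868) had 0 and 0.02 TPM in control, 4.96 and 4.71 TPM at 0.1 µg/ml and 44.2 and 44.7 TPM at 0.5 µg/ml. This list had Fgg at 0 and no more than 0.87 TPM of Alb. The part of these markers in the changes below was not tested.

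Across the 41 genes the 0.5 µg/ml dose came with changes in both directions and few genes stayed put. Against control 39 genes passed (edgeR quasi-likelihood test, adjusted p under 0.05), 20 of them higher and 19 lower, beside 67.5% of all 16975 tested genes, 34.4% in the upward and 33.1% in the downward direction. Among the 13262 tested genes that reached 1 TPM in a group these shares were 36.5% and 35.9%. The median log2 fold change was 0.13 over the 41 genes and -0.0045 over all tested genes, and the median of its absolute value 1.83 and 0.49. At least 2-fold changes were called for 15 genes in the upward and 10 in the downward direction, against 12.2% and 10.2% of the tested genes that reached 1 TPM. Of the 15 and the 10, 6 and 4 were at 1 TPM in every group. The low dose against control gave 30 calls, 18 higher and 12 lower, beside 34.6% of all tested genes, 20.8% upward and 13.8% downward. Between the doses 36 genes passed, 19 higher and 17 lower at 0.5 µg/ml, beside 58.9% of all tested genes, 29.8% upward and 29.1% downward.

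The choice by level bears on these counts. Only 25 of the 41 genes reached 1 TPM in all 3 groups. Another 10 reached it only with doxycycline, and 6 did not reach it at 0.5 µg/ml, so their direction was largely fixed by how they were chosen. Among the 25 genes at 1 TPM in every group, 10 were higher and 13 lower at 0.5 µg/ml against control, 9 and 6 at 0.1 µg/ml, and 9 and 12 between the doses. The share called among all tested genes at 1 TPM in every group was not counted, so these numbers only describe the 25. For the other 16 of the 41 genes levels and folds are given below as a description, without a p-value. A limit of 5 TPM in a group served to pick genes for full values. Among the 25, Mmp7, Mmp14, Klk1, Prss12, Prss36, Prss41 and Serpinb5 met it only through the groups where they are high. Their p-values are thus of genes picked in part by level and change.

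**Figure D1:**
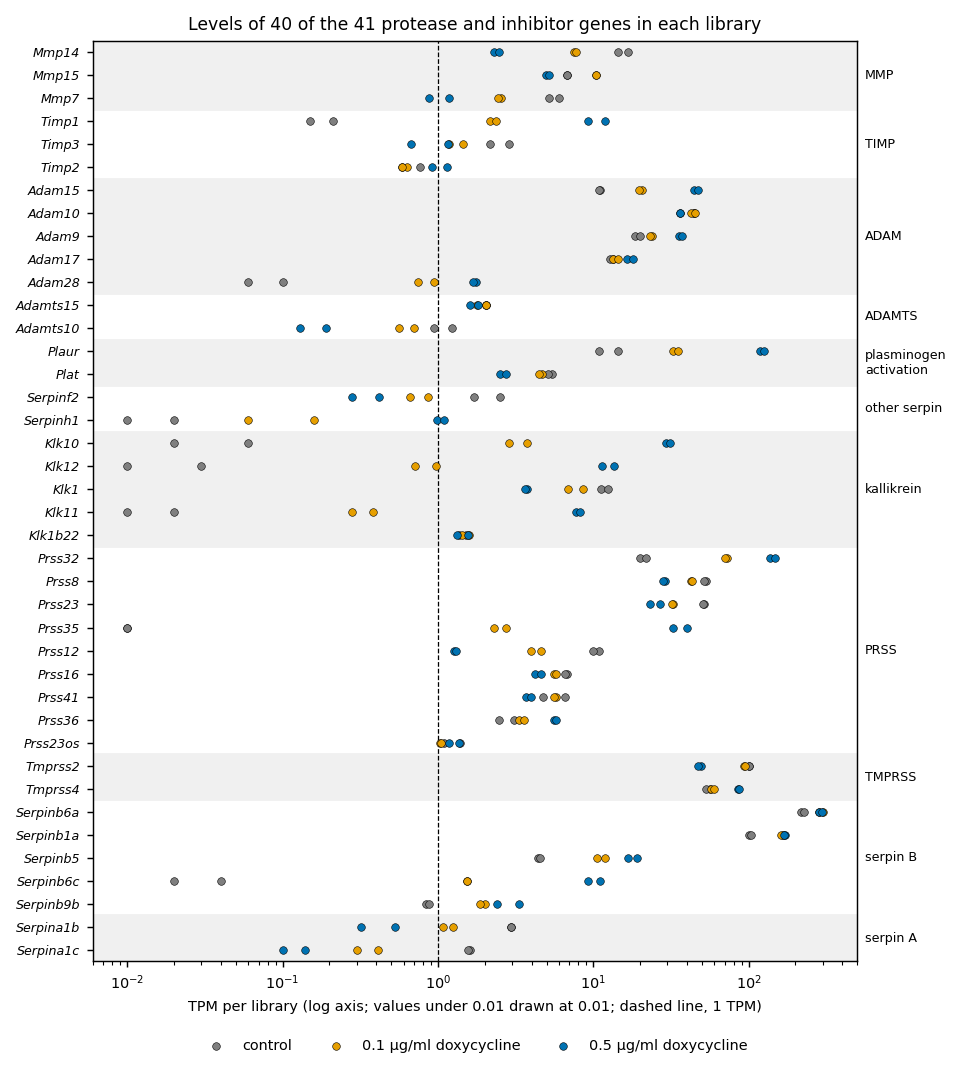
Level of 40 of the 41 genes in each of the 6 libraries, in TPM on a log axis, grouped by family. Points are libraries, coloured by doxycycline dose, and values under 0.01 TPM are drawn at 0.01. The libraries of a group lie close together for most genes, while Klk10, Prss35 and Serpinb6c span more than a factor of 100 between control and 0.5 µg/ml.

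Most of the 41 genes moved in one direction over the dose series. How many of all tested genes did so was not counted, so the patterns only describe these genes. In 16 genes all 3 comparisons were higher at the larger dose, 7 of them among the 25 at 1 TPM in every group, with the direction of the rest largely set by the choice; among the 16 were Plaur, Prss32, Adam15, Adam9, Serpinb5 and Klk10. In 11 genes, 6 of them among those 25, all 3 were lower, among them Mmp7, Mmp14, Klk1, Prss12, Prss23 and Prss8. Another 8 passed at 0.5 µg/ml against both other groups without passing at 0.1 µg/ml against control: Adam17, Timp2 and Tmprss4 were higher, and Adam10, Plat, Prss16, Prss41 and Tmprss2 were lower. Mmp15 was the single gene that passed as higher at 0.1 µg/ml and as lower at 0.5 µg/ml against control. Serpinb6a and Timp3 differed from control at both doses and did not pass between the doses. Adamts15 passed at 0.5 µg/ml against control alone, and Klk1b22 and Prss23os passed in no comparison.

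Some calls lay near the threshold and were lost when 1 library was left out, with an adjusted p of edgeR of 0.0528 to 0.243. In these 29 losses the direction stayed and the log2 fold change was 0.597 to 1.29 times that with all libraries, and in 4 of them the library left out was in neither group compared. At 0.1 µg/ml against control the call of Serpinh1 was lost without any one of the 6 libraries, that of Prss36 without any one but the second control library, and that of Timp3 without the first control or the first 0.1 µg/ml library. Between the doses Prss16 and Serpinb1a did not pass without the second 0.1 µg/ml library or either 0.5 µg/ml library. Serpinf2 did not pass there without the first 0.1 µg/ml or the second 0.5 µg/ml library, Serpina1c and Serpinb9b without the second 0.5 µg/ml library, and Prss41 without the first 0.1 µg/ml library. At 0.5 µg/ml against control the calls lost were of Adamts15 without the first control or either 0.5 µg/ml library, of Prss41 without the second control library and of Timp2 without the second 0.5 µg/ml library.

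**Figure D2:**
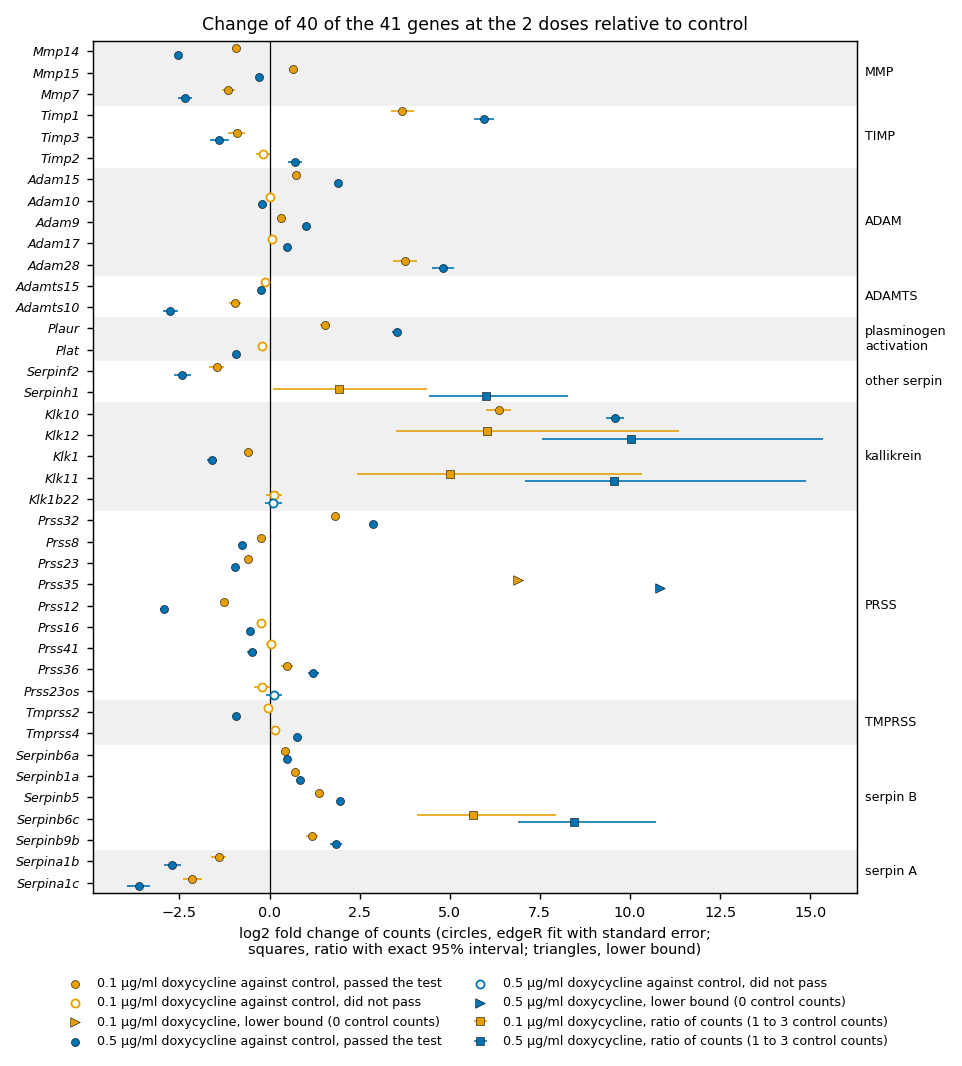
Log2 fold change of 40 of the 41 genes at 0.1 and 0.5 µg/ml doxycycline against control. Circles are edgeR estimates with their standard error, open where the test was not passed; squares are ratios of counts with an exact 95% interval where control held 1 to 3 counts, and triangles are lower bounds where control held none. Mmp15 alone has filled circles right of 0 at 0.1 µg/ml and left of it at 0.5 µg/ml, and Prss35 and the kallikreins Klk10, Klk11 and Klk12 lie farthest to the right.

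The kallikreins form one cluster on chromosome 7, and the members of this family split into a rising and a falling part. Klk10, Klk11 and Klk12 are neighbours and encode secreted trypsin-like or chymotrypsin-like peptidases known from skin and other stratified epithelia. Klk1, at the far end of the cluster, encodes tissue kallikrein, which releases kinin from kininogen. The promoters of the 4 genes are shown because they belong to one cluster and their levels moved in opposite directions; Prss35 and Plaur follow because they had the largest bound and the highest level among the genes that rose over 10-fold. The sequences are from RefSeq on GRCm38.p6, plus strand, and span the start of the transcript, most of each lying before it, with matches to the motifs described next in capitals. They lie at chr7:43768850-43769149 (Klk12), chr7:43774367-43774666 (the first of a pair for Klk11), chr7:43780804-43781103 (Klk10), chr7:44225110-44225409 (Klk1), chr9:86743383-86743682 (Prss35) and chr7:24462233-24462532 (Plaur).
Klk12: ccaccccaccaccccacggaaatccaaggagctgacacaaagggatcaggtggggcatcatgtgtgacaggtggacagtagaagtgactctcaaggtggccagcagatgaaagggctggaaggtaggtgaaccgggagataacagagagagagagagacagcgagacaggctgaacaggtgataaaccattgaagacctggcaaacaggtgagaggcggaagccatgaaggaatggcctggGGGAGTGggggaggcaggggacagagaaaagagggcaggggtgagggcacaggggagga
Klk11: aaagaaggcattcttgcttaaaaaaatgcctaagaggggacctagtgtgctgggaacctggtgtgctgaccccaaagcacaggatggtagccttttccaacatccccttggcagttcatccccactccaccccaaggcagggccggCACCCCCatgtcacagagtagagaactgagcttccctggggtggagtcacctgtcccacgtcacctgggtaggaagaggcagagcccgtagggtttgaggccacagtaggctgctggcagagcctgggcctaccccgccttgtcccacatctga
Klk10: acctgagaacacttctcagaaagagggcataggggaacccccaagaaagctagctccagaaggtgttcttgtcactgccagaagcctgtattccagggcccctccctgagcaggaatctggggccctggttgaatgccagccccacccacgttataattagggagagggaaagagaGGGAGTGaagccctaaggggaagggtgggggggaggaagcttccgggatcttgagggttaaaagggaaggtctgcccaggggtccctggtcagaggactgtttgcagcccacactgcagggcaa
Klk1: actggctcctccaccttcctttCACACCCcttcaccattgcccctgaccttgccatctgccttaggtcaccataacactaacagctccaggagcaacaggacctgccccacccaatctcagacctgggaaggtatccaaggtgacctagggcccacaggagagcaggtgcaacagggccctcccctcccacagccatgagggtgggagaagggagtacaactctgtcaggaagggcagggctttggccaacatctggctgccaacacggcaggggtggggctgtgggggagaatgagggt
Prss35: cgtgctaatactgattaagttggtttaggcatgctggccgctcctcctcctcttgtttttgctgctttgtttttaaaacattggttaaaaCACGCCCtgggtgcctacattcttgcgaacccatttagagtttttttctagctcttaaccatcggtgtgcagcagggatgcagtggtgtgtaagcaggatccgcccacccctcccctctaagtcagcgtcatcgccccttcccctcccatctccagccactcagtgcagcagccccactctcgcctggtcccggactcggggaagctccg
Plaur: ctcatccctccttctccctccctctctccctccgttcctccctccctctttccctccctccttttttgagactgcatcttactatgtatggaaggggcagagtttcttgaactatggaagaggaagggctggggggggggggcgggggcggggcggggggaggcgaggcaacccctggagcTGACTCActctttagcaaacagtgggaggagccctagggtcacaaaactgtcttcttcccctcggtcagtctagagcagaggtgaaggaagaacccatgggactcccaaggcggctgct

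RefSeq promoters were at hand for 30 of the 41 genes, and each was searched on both strands for 4 short motifs, named for KLF, AP-1, E-box and octamer binding factors. The KLF motif GGGNGTG was found in 7 of the 16 genes with a promoter that were higher at 0.5 µg/ml, and in 2 of the 13 that were lower. It stood in 29.2% of all 32851 promoters of the same length. A gene was counted if any of its promoters held a match, and the 30 genes had 39 promoters. The shares over all promoters are per single promoter, so they are not in the same unit as the gene counts. In the promoters shown, Klk10, Klk11, Klk12, Klk1 and Prss35 each carry 1 match. The first base of the match is at position -74, -104, -9, -228 and -160 relative to the start in that order. The other promoter of Klk11 held none. The AP-1 motif TGANTCA, in 7.81% of all promoters, was found in 3 higher genes (Plaur, Prss36 and Serpinb5) and in 4 lower ones (Mmp7, Prss23, Serpina1b and Serpina1c). In Plaur it begins at position -69. The E-box CACGTG, in 7.15% of all promoters, was found in no higher gene and in Adam10 and Mmp7 among the lower ones, and the octamer ATGCAAAT, in 1.74%, in none of the 30 genes. Matches on the other strand read as the reverse complement. The KLF and AP-1 motifs thus occur on both sides of the change, and these are letter matches only.

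Klk10 (ENSMUSG00000030693) had 0.06 and 0.02 TPM in control, 3.75 and 2.86 TPM at 0.1 µg/ml and 29.2 and 31.3 TPM at 0.5 µg/ml. Its 2 control libraries held 4 counts together, and the groups were far apart. The fold over control was 81.7 at 0.1 µg/ml and 768 at 0.5 µg/ml, estimates that lean on those 4 counts. Between the doses, where counts were ample, Klk10 was 9.40-fold higher at 0.5 µg/ml. Klk12 followed with 0 and 0.03 TPM in control, 0.71 and 0.97 TPM at 0.1 µg/ml and 11.4 and 13.7 TPM at 0.5 µg/ml, and 1 control count. By the ratio of counts it was 1052-fold higher (exact 95% counting interval 188 to 41606) at 0.5 µg/ml than in control. Klk11 (ENSMUSG00000067616) had 0.02 and 0 TPM in control, 0.38 and 0.28 TPM at 0.1 µg/ml and 7.68 and 8.22 TPM at 0.5 µg/ml, likewise with 1 control count, and was 758-fold higher (exact 95% counting interval 136 to 29994) at 0.5 µg/ml than in control. Each of the 3 genes was nearly silent in control, low at 0.1 µg/ml and clearly present at 0.5 µg/ml, with no overlap between groups. From 0.1 to 0.5 µg/ml the step was 15.8-fold for Klk12 and 23.7-fold for Klk11.

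Klk1 went the other way. The gene (ENSMUSG00000063903) had 11.1 and 12.5 TPM in control, 6.89 and 8.61 TPM at 0.1 µg/ml and 3.72 and 3.62 TPM at 0.5 µg/ml, so that every control library lay above every treated one. It was 3.03-fold lower at 0.5 µg/ml than in control (log2 fold change -1.60 ± 0.14, edgeR adjusted p = 4.5e-06), and at 0.1 µg/ml 1.51-fold lower (log2 fold change -0.59 ± 0.13, edgeR adjusted p = 0.00565). Klk1b22, which encodes a binding protein of epidermal growth factor, had 1.36 and 1.51 TPM in control, 1.59 and 1.43 TPM at 0.1 µg/ml and 1.32 and 1.56 TPM at 0.5 µg/ml. Its groups overlapped and it passed in no comparison. Klk1b genes are near-identical copies whose reads could be shared, so its level is uncertain. As a sum the 5 kallikreins stood at 12.6 and 14.03 TPM in control, 13.3 and 14.2 TPM at 0.1 µg/ml and 53.3 and 58.4 TPM at 0.5 µg/ml, so that at the lower dose the fall of Klk1 and the rise of the others nearly balanced.

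**Figure D3:**
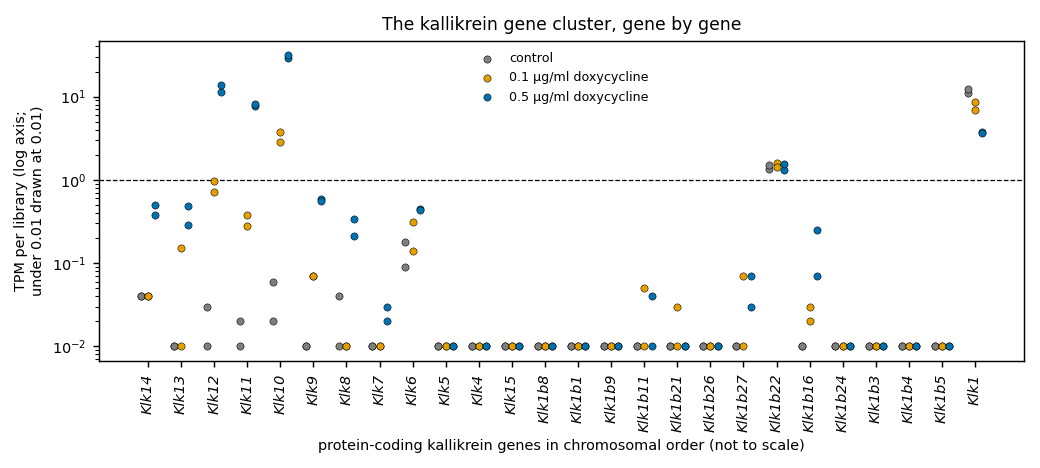
Level of each protein-coding kallikrein gene in each library, in TPM on a log axis, with genes in their order along chromosome 7 and not to scale. Points are libraries, coloured by dose, and values under 0.01 TPM are drawn at 0.01. Klk12, Klk11 and Klk10 lie above 1 TPM at 0.5 µg/ml and at or under 0.06 TPM in control, most Klk1b genes lie at the bottom, and Klk1 falls with dose.

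The 3 matrix metalloproteinases above 1 TPM were lower at 0.5 µg/ml. Mmp14 encodes a membrane-anchored collagenase that also activates the precursor of MMP2. The gene (ENSMUSG00000000957) had 14.4 and 16.6 TPM in control, 7.55 and 7.78 TPM at 0.1 µg/ml and 2.28 and 2.47 TPM at 0.5 µg/ml. The 3 groups did not overlap, and the fall over the doses was graded. Mmp14 was 5.81-fold lower at 0.5 µg/ml than in control (log2 fold change -2.54 ± 0.08, edgeR adjusted p = 2.51e-09) and 1.91-fold lower at 0.1 µg/ml (log2 fold change -0.94 ± 0.07, edgeR adjusted p = 5.29e-06).

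Mmp7 encodes matrilysin, which in the mouse small intestine is made by Paneth cells and processes the precursors of their defensins. The gene (ENSMUSG00000018623) had 6.05 and 5.20 TPM in control, 2.54 and 2.42 TPM at 0.1 µg/ml and 0.88 and 1.17 TPM at 0.5 µg/ml. Every control library lay above every treated one. Mmp7 was 5.09-fold lower at 0.5 µg/ml than in control (log2 fold change -2.35 ± 0.19, edgeR adjusted p = 3.12e-06), and at 0.1 µg/ml 2.20-fold lower (log2 fold change -1.14 ± 0.17, edgeR adjusted p = 0.000681). In these bulk samples fewer cells of a type and less RNA per cell cannot be told apart.

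Mmp15 encodes another membrane-anchored metalloproteinase, closely related to Mmp14, and behaved differently. The gene (ENSMUSG00000031790) had 6.73 and 6.74 TPM in control, 10.4 and 10.4 TPM at 0.1 µg/ml and 4.99 and 5.21 TPM at 0.5 µg/ml. The libraries at 0.1 µg/ml stood above all others and those at 0.5 µg/ml below all others. Against control it was 1.58-fold higher at 0.1 µg/ml (log2 fold change 0.66 ± 0.05, edgeR adjusted p = 4.59e-06) and 1.22-fold lower at 0.5 µg/ml (log2 fold change -0.28 ± 0.05, edgeR adjusted p = 0.000535). The difference between the doses was itself tested, with Mmp15 1.93-fold lower at 0.5 µg/ml than at 0.1 µg/ml (log2 fold change -0.95 ± 0.05, edgeR adjusted p = 1.78e-07). Together the 3 metalloproteinase genes summed to 27.2 and 28.5 TPM in control, 20.5 and 20.6 TPM at 0.1 µg/ml and 8.15 and 8.85 TPM at 0.5 µg/ml.

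Their inhibitors of the TIMP family did not move as a group. None of them reached 1 TPM in every group, so their direction was largely fixed by the choice, which bears on their sum too. Timp1, a secreted inhibitor of most MMPs, had 0.21 and 0.15 TPM in control, 2.17 and 2.35 TPM at 0.1 µg/ml and 9.26 and 11.9 TPM at 0.5 µg/ml. It was scarce in control, with 10 counts over both libraries, and rose at each dose. The fold over control was 12.9 at 0.1 µg/ml and 61.9 at 0.5 µg/ml. Timp3, which binds to matrix and also inhibits ADAM17, had 2.88 and 2.15 TPM in control, 1.18 and 1.45 TPM at 0.1 µg/ml and 1.16 and 0.67 TPM at 0.5 µg/ml. Both treated groups lay below control, and they nearly met each other. Timp3 was 2.62-fold lower at 0.5 µg/ml than in control and 1.88-fold lower at 0.1 µg/ml, and the doses did not differ past the test. Timp2, which inhibits MMPs and takes part in the activation of MMP2 by MMP14, had 0.77 and 0.59 TPM in control, 0.63 and 0.59 TPM at 0.1 µg/ml and 1.15 and 0.91 TPM at 0.5 µg/ml. It was 1.63-fold higher at 0.5 µg/ml than in control, at levels close to 1 TPM throughout. The TIMP sum was 3.86 and 2.89 TPM in control, 3.98 and 4.39 TPM at 0.1 µg/ml and 11.6 and 13.5 TPM at 0.5 µg/ml. At 0.5 µg/ml that sum exceeded the sum of the 3 metalloproteinases in both libraries, while in control it was below it in both.

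Among the ADAMs, membrane proteases that shed ectodomains, 4 of 5 were higher and 1 was lower at 0.5 µg/ml, beside 34.4% and 33.1% of all tested genes. Adam15 (ENSMUSG00000028041) had 11.03 and 10.9 TPM in control, 20.6 and 19.6 TPM at 0.1 µg/ml and 44.4 and 47.2 TPM at 0.5 µg/ml. Its groups did not overlap, and it was 3.70-fold higher at 0.5 µg/ml than in control (log2 fold change 1.89 ± 0.06, edgeR adjusted p = 5.29e-09) and 1.65-fold higher at 0.1 µg/ml (log2 fold change 0.72 ± 0.07, edgeR adjusted p = 2.63e-05). Adam9 (ENSMUSG00000031555) had 18.6 and 19.9 TPM in control, 23.7 and 23.2 TPM at 0.1 µg/ml and 35.4 and 37.4 TPM at 0.5 µg/ml, again in 3 separate steps. It was 2.02-fold higher at 0.5 µg/ml than in control (log2 fold change 1.02 ± 0.04, edgeR adjusted p = 2.68e-08) and 1.25-fold higher at 0.1 µg/ml (log2 fold change 0.33 ± 0.04, edgeR adjusted p = 0.000359).

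Adam10 and Adam17 are the main sheddases of Notch and of ligands of the epidermal growth factor receptor, and both changed little. Adam10 (ENSMUSG00000054693) had 44.3 and 44.7 TPM in control, 42.8 and 45.2 TPM at 0.1 µg/ml and 36.3 and 36.4 TPM at 0.5 µg/ml. Control and 0.1 µg/ml overlapped, and the libraries at 0.5 µg/ml lay below both, 1.15-fold lower than control (log2 fold change -0.20 ± 0.04, edgeR adjusted p = 0.00168). Adam17 (ENSMUSG00000052593) had 13.5 and 12.8 TPM in control, 13.3 and 14.5 TPM at 0.1 µg/ml and 16.6 and 17.9 TPM at 0.5 µg/ml, with the libraries at 0.5 µg/ml above all others. It was 1.39-fold higher at 0.5 µg/ml than in control (log2 fold change 0.48 ± 0.06, edgeR adjusted p = 3.33e-05), and at 0.1 µg/ml it did not pass (log2 fold change 0.08 ± 0.06, edgeR adjusted p = 0.301). Adam28, which has membrane and secreted forms, had 0.10 and 0.06 TPM in control, 0.94 and 0.74 TPM at 0.1 µg/ml and 1.75 and 1.68 TPM at 0.5 µg/ml, a rise at both doses from a very low level. The ADAM sum was 87.5 and 88.4 TPM in control, 101 and 103 TPM at 0.1 µg/ml and 134 and 141 TPM at 0.5 µg/ml.

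Both ADAMTS genes were low. Adamts10, whose product binds fibrillin, had 0.94 and 1.23 TPM in control, 0.56 and 0.70 TPM at 0.1 µg/ml and 0.13 and 0.19 TPM at 0.5 µg/ml, a graded fall, and was 6.73-fold lower at 0.5 µg/ml than in control. Adamts15, a protease of aggrecan and versican, had 2.04 and 2.05 TPM in control, 1.78 and 2.03 TPM at 0.1 µg/ml and 1.81 and 1.61 TPM at 0.5 µg/ml. The change at 0.5 µg/ml against control was small and close to the threshold (log2 fold change -0.23 ± 0.08, edgeR adjusted p = 0.0356), and it no longer passed under 8 of the alternative settings.

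In the plasminogen system the receptor rose while an activator and the antiplasmin gene fell. Plaur encodes the urokinase receptor, which holds urokinase at the cell surface. The gene (ENSMUSG00000046223) had 14.5 and 10.8 TPM in control, 32.8 and 34.95 TPM at 0.1 µg/ml and 119 and 125 TPM at 0.5 µg/ml. The groups were widely separated, with the 2 control libraries lowest. Plaur was 11.5-fold higher at 0.5 µg/ml than in control (log2 fold change 3.52 ± 0.14, edgeR adjusted p = 1.35e-08) and 2.89-fold higher at 0.1 µg/ml (log2 fold change 1.53 ± 0.14, edgeR adjusted p = 2.87e-05). Plat, the tissue-type plasminogen activator, had 5.41 and 5.14 TPM in control, 4.68 and 4.49 TPM at 0.1 µg/ml and 2.51 and 2.72 TPM at 0.5 µg/ml. The 3 groups did not overlap, but the step at 0.1 µg/ml against control did not pass (log2 fold change -0.21 ± 0.09, edgeR adjusted p = 0.111). Plat was 1.90-fold lower at 0.5 µg/ml than in control (log2 fold change -0.92 ± 0.10, edgeR adjusted p = 1.62e-05). Plau, the urokinase gene, did not reach the level for inclusion, at 0.775, 0.420 and 0.175 TPM on average in control, at 0.1 µg/ml and at 0.5 µg/ml.

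Serpinf2 encodes antiplasmin, which inhibits plasmin itself, and had 1.70 and 2.49 TPM in control, 0.86 and 0.66 TPM at 0.1 µg/ml and 0.42 and 0.28 TPM at 0.5 µg/ml. It was 5.34-fold lower at 0.5 µg/ml than in control and 2.76-fold lower at 0.1 µg/ml, and the groups did not overlap. Serpinf2 stood below 1 TPM in every treated library. From a list of 17 plasmin and coagulation receptors and cofactors 10 were tested. Against control 5 were higher and 5 lower at 0.5 µg/ml, beside 34.4% and 33.1% of all tested genes; the low dose gave 4 higher and 3 lower, beside 20.8% and 13.8%. From this and the lists below the genes named are mostly the largest changes, and a gene under 5 TPM in a group is given without a p-value, since it was taken through the groups where it is high. Anxa2 and S100a10 encode the annexin complex that binds plasminogen and its tissue-type activator at the cell surface. Anxa2 averaged 277, 508 and 821 TPM in control, at 0.1 µg/ml and at 0.5 µg/ml, and S100a10 averaged 391, 614 and 935 TPM. Anxa2 was 3.15-fold higher at 0.5 µg/ml than in control (by edgeR, adjusted p = 7.78e-09) and S100a10 2.55-fold higher (by edgeR, adjusted p = 9.87e-09). The falling genes of that list included F3, tissue factor, at 19.7, 11.3 and 7.69 TPM in the same groups, and Vldlr, which clears complexes of proteases and serpins, at 14.1, 10.1 and 4.32 TPM. F3 was 2.38-fold lower at 0.5 µg/ml than in control (by edgeR, adjusted p = 5.59e-06), and Vldlr 2.98-fold lower.

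**Figure D4:**
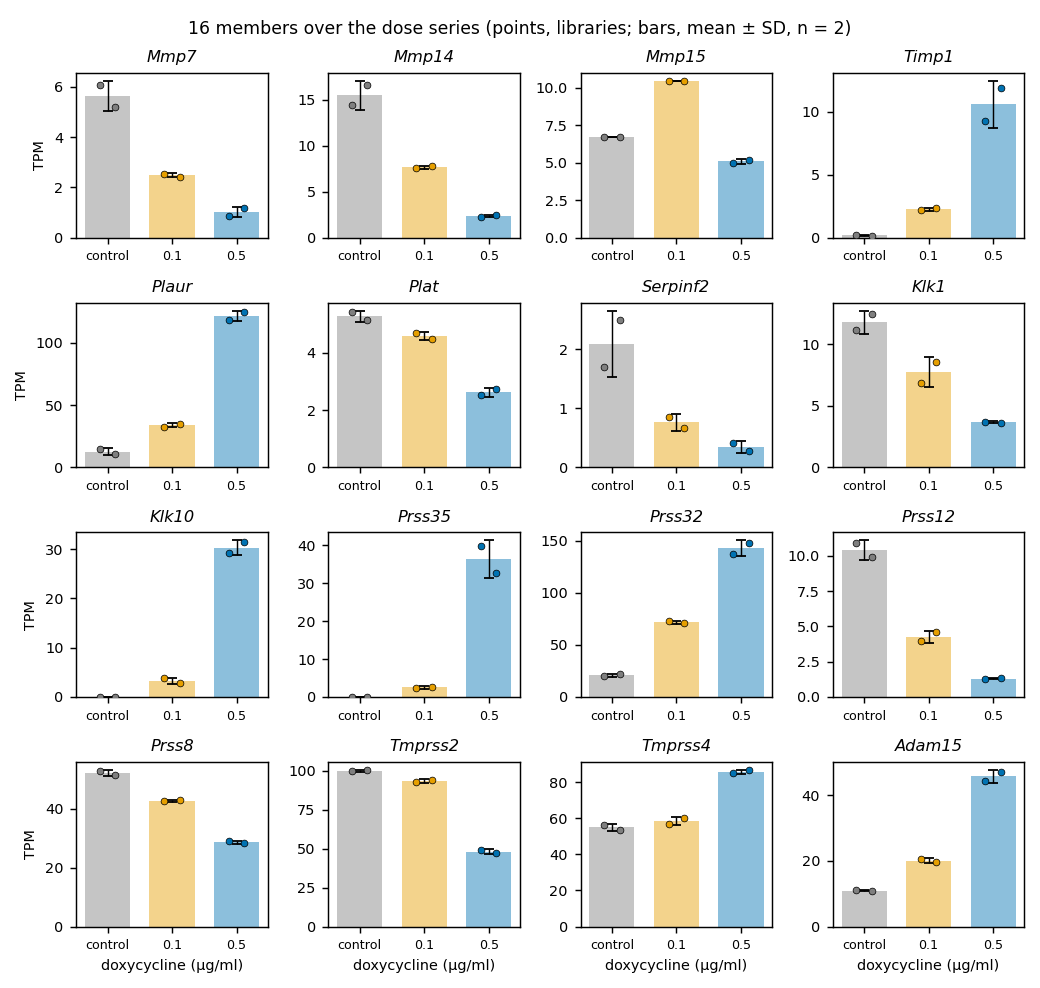
Level of 16 genes over the dose series, in TPM per library. Bars are group means with the SD of 2 libraries, points are libraries, and each panel has its own axis from 0. Plaur, Timp1, Klk10, Prss35, Prss32 and Adam15 climb with dose, Mmp7, Mmp14, Serpinf2, Klk1, Prss12 and Prss8 fall with dose, and Mmp15 is highest at 0.1 µg/ml.

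The Prss genes encode serine proteases of several kinds and held the widest range of change. Prss35, a protease-like protein whose predicted active site lacks the usual serine, had 0 and 0 TPM in control, 2.30 and 2.74 TPM at 0.1 µg/ml and 39.9 and 32.8 TPM at 0.5 µg/ml. Control held no count in either library, so only a bound is possible, taking 3 counts in each control library: at least 119.7-fold higher at 0.1 µg/ml and at least 1812-fold higher at 0.5 µg/ml. The step between the doses was 15.2-fold. Prss32 (ENSMUSG00000048992) had 19.9 and 21.8 TPM in control, 72.9 and 70.8 TPM at 0.1 µg/ml and 138 and 148 TPM at 0.5 µg/ml, 3 groups without overlap. It was 7.34-fold higher at 0.5 µg/ml than in control (log2 fold change 2.88 ± 0.05, edgeR adjusted p = 1.15e-10) and 3.51-fold higher at 0.1 µg/ml (log2 fold change 1.81 ± 0.05, edgeR adjusted p = 1.11e-08). In control Prss32 was below Prss8 and Prss23 in TPM, and at 0.5 µg/ml it was the most abundant Prss gene in both libraries. Prss36, which encodes polyserase-2, had 2.47 and 3.10 TPM in control, 3.34 and 3.59 TPM at 0.1 µg/ml and 5.55 and 5.78 TPM at 0.5 µg/ml. The gene was 2.32-fold higher at 0.5 µg/ml than in control (log2 fold change 1.22 ± 0.15, edgeR adjusted p = 6.27e-05), and the smaller step at 0.1 µg/ml (log2 fold change 0.48 ± 0.16, edgeR adjusted p = 0.0387) no longer passed under 10 of the alternative settings.

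Most other Prss genes fell. Prss12 encodes neurotrypsin, which cleaves agrin. The gene (ENSMUSG00000027978) had 10.9 and 9.91 TPM in control, 3.95 and 4.57 TPM at 0.1 µg/ml and 1.26 and 1.31 TPM at 0.5 µg/ml, with every treated library below control. Prss12 was 7.55-fold lower at 0.5 µg/ml than in control (log2 fold change -2.92 ± 0.11, edgeR adjusted p = 1.12e-08) and 2.39-fold lower at 0.1 µg/ml (log2 fold change -1.26 ± 0.10, edgeR adjusted p = 7.93e-06). Prss8 encodes prostasin, a lipid-anchored activator of the epithelial sodium channel. The gene (ENSMUSG00000030800) had 52.9 and 51.3 TPM in control, 42.5 and 43.02 TPM at 0.1 µg/ml and 29.03 and 28.2 TPM at 0.5 µg/ml, also without overlap, and was 1.71-fold lower at 0.5 µg/ml than in control (log2 fold change -0.78 ± 0.05, edgeR adjusted p = 5e-07). Prss23, a secreted protease, had 51.6 and 50.6 TPM in control, 32.7 and 32.2 TPM at 0.1 µg/ml and 23.04 and 26.8 TPM at 0.5 µg/ml and was 1.96-fold lower at 0.5 µg/ml than in control (log2 fold change -0.97 ± 0.05, edgeR adjusted p = 1.92e-07). Smaller falls were seen in Prss16, a protease best known from the thymus, with 6.80 and 6.59 TPM in control, 5.61 and 5.71 TPM at 0.1 µg/ml and 4.22 and 4.63 TPM at 0.5 µg/ml (log2 fold change -0.53 ± 0.09 at 0.5 µg/ml against control). Prss16 was added after its values were seen and is given without a p-value. Prss41 (ENSMUSG00000024114) had 4.77 and 6.58 TPM in control, 5.75 and 5.58 TPM at 0.1 µg/ml and 3.71 and 3.97 TPM at 0.5 µg/ml. It passed at 0.5 µg/ml against control (log2 fold change -0.48 ± 0.14, edgeR adjusted p = 0.0116) but no longer did without the second control library, its highest. Prss23os (ENSMUSG00000030623) had 1.38 and 1.09 TPM in control, 1.03 and 1.05 TPM at 0.1 µg/ml and 1.17 and 1.36 TPM at 0.5 µg/ml; its groups overlapped, it passed in no comparison, and its reads may not be separable from those of Prss23.

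St14 encodes matriptase, a membrane protease that acts in a mutual activation loop with prostasin. It belongs to a list of other surface and secreted proteases, of which 17 of 31 were tested. Against control 6 were higher and 9 lower at 0.5 µg/ml (all tested genes, 34.4% and 33.1%); the low dose gave 7 higher and 5 lower (20.8% and 13.8%). St14 averaged 80.7, 102 and 153 TPM in control, at 0.1 µg/ml and at 0.5 µg/ml, so it moved opposite to Prss8 (log2 fold change 1.05 ± 0.04, edgeR adjusted p = 1.98e-08 at 0.5 µg/ml against control). Its cognate Kunitz inhibitors behaved differently from each other. Spint1 averaged 70.3, 83.2 and 99.9 TPM in the same groups (log2 fold change 0.61 ± 0.05 at 0.5 µg/ml against control). Spint2 averaged 401, 365 and 361 TPM and did not pass (log2 fold change -0.06 ± 0.05). Both were added after their values were seen and are given without a p-value. Also on that list, Cfi, complement factor I, averaged 7.90, 2.12 and 0.445 TPM and was 15.7-fold lower at 0.5 µg/ml than in control. The chymotrypsinogen gene Ctrb1 averaged 5.995, 2.83 and 0.670 TPM and was 8.30-fold lower. Hgfac, the activator of hepatocyte growth factor, averaged 6.26, 8.85 and 11.04 TPM and was 1.77-fold higher (by edgeR, adjusted p = 0.000234).

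The transmembrane proteases Tmprss2 and Tmprss4 were among the most abundant genes of the set and diverged at the higher dose. Tmprss2 (ENSMUSG00000000385) had 99.8 and 101 TPM in control, 92.9 and 94.5 TPM at 0.1 µg/ml and 49.4 and 47.04 TPM at 0.5 µg/ml. Both libraries at 0.5 µg/ml were well below the rest, and the gene was 1.90-fold lower than in control (log2 fold change -0.92 ± 0.05, edgeR adjusted p = 9.14e-08). Tmprss4 (ENSMUSG00000032091) had 56.2 and 53.4 TPM in control, 56.9 and 60.1 TPM at 0.1 µg/ml and 84.9 and 86.4 TPM at 0.5 µg/ml, and its libraries at 0.5 µg/ml lay above all others, 1.70-fold higher than control (log2 fold change 0.76 ± 0.06, edgeR adjusted p = 1.68e-06). At 0.1 µg/ml neither passed against control (by edgeR, adjusted p = 0.411 for Tmprss2 and 0.093 for Tmprss4). Tmprss4 was thus below Tmprss2 in every control library and above it in both libraries at 0.5 µg/ml. Their sum changed less than either gene, with 156 and 154 TPM in control, 149.8 and 154.5 TPM at 0.1 µg/ml and 134 and 133 TPM at 0.5 µg/ml.

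All 5 clade B serpins of the set were higher at both doses than in control. Over all tested genes 34.4% were higher at 0.5 µg/ml and 20.8% at 0.1 µg/ml. Serpinb6c and Serpinb9b reached 1 TPM only with doxycycline, which largely fixed their direction. Of 3 clade B genes under 1 TPM that were tested, Serpinb8 was higher and Serpinb9 lower at 0.5 µg/ml, and Serpinb6b did not pass. Serpinb6a and Serpinb1a, which inhibit neutrophil and lysosomal proteases, were the most abundant genes of the whole set. Serpinb6a (ENSMUSG00000060147) had 216 and 229 TPM in control, 299 and 284 TPM at 0.1 µg/ml and 284 and 298 TPM at 0.5 µg/ml. Both treated groups lay above control and overlapped each other. It was 1.41-fold higher at 0.5 µg/ml than in control (log2 fold change 0.49 ± 0.04, edgeR adjusted p = 5.94e-06) and 1.36-fold higher at 0.1 µg/ml (log2 fold change 0.44 ± 0.04, edgeR adjusted p = 5.98e-05), with a log2 difference of 0.05 ± 0.04 between the doses. Serpinb1a (ENSMUSG00000044734) had 101 and 103 TPM in control, 165 and 162 TPM at 0.1 µg/ml and 173 and 168 TPM at 0.5 µg/ml. It was 1.78-fold higher at 0.5 µg/ml than in control (log2 fold change 0.83 ± 0.04, edgeR adjusted p = 6.59e-08) and 1.63-fold higher at 0.1 µg/ml (log2 fold change 0.71 ± 0.04, edgeR adjusted p = 1.13e-06). The doses differed by a log2 fold change of only 0.12 ± 0.04, which no longer passed under 6 of the alternative settings. For both genes most of the difference from control was thus present at 0.1 µg/ml.

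Serpinb5 encodes maspin, a serpin of squamous and glandular epithelia that is not known to inhibit proteases in the usual way. The gene (ENSMUSG00000067006) had 4.43 and 4.56 TPM in control, 11.9 and 10.6 TPM at 0.1 µg/ml and 16.8 and 18.99 TPM at 0.5 µg/ml, rising in separate steps, and was 3.84-fold higher at 0.5 µg/ml than in control (log2 fold change 1.94 ± 0.07, edgeR adjusted p = 1.06e-08). Serpinb6c (ENSMUSG00000052180) had 0.04 and 0.02 TPM in control, 1.53 and 1.53 TPM at 0.1 µg/ml and 9.19 and 11.1 TPM at 0.5 µg/ml, with 3 control counts, and by the ratio of counts was 351-fold higher (exact 95% counting interval 119.7 to 1704) at 0.5 µg/ml than in control. Serpinb9b, a relative of the granzyme B inhibitor, had 0.84 and 0.88 TPM in control, 2.01 and 1.86 TPM at 0.1 µg/ml and 2.39 and 3.31 TPM at 0.5 µg/ml and was 3.56-fold higher. Serpinb6c and Serpinb9b belong to a cluster of similar copies on chromosome 13, so part of their reads may be shared. The clade B sum was 323 and 337 TPM in control, 479.98 and 459.99 TPM at 0.1 µg/ml and 485 and 499 TPM at 0.5 µg/ml.

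The clade A serpins of the set moved in the opposite direction, and neither reached 1 TPM at 0.5 µg/ml, so their direction was largely fixed by the choice. Serpina1b and Serpina1c encode copies of alpha-1-antitrypsin, the inhibitor of neutrophil elastase. Serpina1b (ENSMUSG00000071178) had 2.96 and 2.94 TPM in control, 1.07 and 1.25 TPM at 0.1 µg/ml and 0.32 and 0.53 TPM at 0.5 µg/ml. Serpina1c (ENSMUSG00000079015) had 1.60 and 1.56 TPM in control, 0.30 and 0.41 TPM at 0.1 µg/ml and 0.14 and 0.10 TPM at 0.5 µg/ml. Both fell in separate steps, and at 0.5 µg/ml Serpina1b was 6.49-fold lower and Serpina1c 12.4-fold lower than in control. Their sequences are near-identical, so how reads were divided between them is uncertain, and their sum fell too, with 4.56 and 4.50 TPM in control, 1.37 and 1.66 TPM at 0.1 µg/ml and 0.46 and 0.63 TPM at 0.5 µg/ml. Serpinh1 (ENSMUSG00000070436) had 0.02 and 0.01 TPM in control, 0.16 and 0.06 TPM at 0.1 µg/ml and 0.98 and 1.10 TPM at 0.5 µg/ml, with 3 control counts, and by the ratio of counts was 64.1-fold higher (exact 95% counting interval 21.6 to 313) at 0.5 µg/ml than in control. Beside it, Dcn and Pdgfrb of the fibroblast list moved in opposite directions, as given above.

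**Figure D5:**
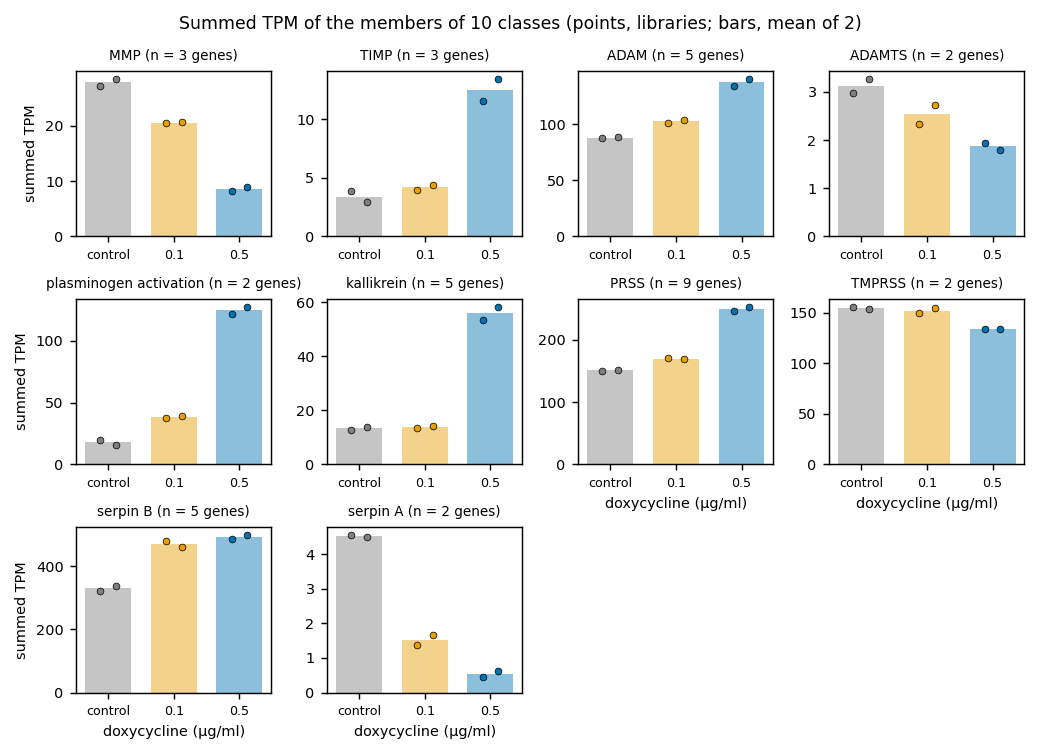
Summed TPM of the genes of 10 families in each library over the dose series, with bars at the mean of 2 libraries and each panel on its own axis from 0. The kallikrein, TIMP and plasminogen activation sums are highest at 0.5 µg/ml, the MMP, ADAMTS and clade A serpin sums are lowest there, and the clade B serpin sum is already 479.98 and 459.99 TPM at 0.1 µg/ml. The plasminogen activation sum at 0.5 µg/ml is nearly all the receptor gene Plaur, while Plat fell. The kallikrein and TIMP sums rise mainly through Klk10, Klk11, Klk12 and Timp1, which reached 1 TPM only with doxycycline.

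Set side by side, the summed protease genes and the summed inhibitor genes both stood higher with doxycycline. The proteases, with the receptor gene Plaur and the antisense Prss23os left out, summed to 441 and 443 TPM in control, 461 and 468 TPM at 0.1 µg/ml and 579 and 598 TPM at 0.5 µg/ml. The inhibitors, TIMPs and serpins without the chaperone Serpinh1, summed to 334 and 348 TPM in control, 487 and 467 TPM at 0.1 µg/ml and 498 and 514 TPM at 0.5 µg/ml. Both sums go by family, not by proven activity. The protease sum still holds Prss35, whose predicted active site lacks the usual serine. The inhibitor sum holds Serpinb5, which is not known to inhibit proteases in the usual way. Most of the inhibitor sum is Serpinb6a and Serpinb1a. In the protease sum Prss32 rose most, from a mean of 20.8 TPM in control to 143 TPM at 0.5 µg/ml. Prss35 went from 0 to 36.3 TPM and Klk10 from 0.04 to 30.3 TPM. Like Klk11, Klk12 and Adam28, these 2 reached 1 TPM only with doxycycline, so their rise was largely fixed by the choice. Other proteases fell, among them Tmprss2 from 100 to 48.2 TPM and Prss23 from 51.1 to 24.9 TPM. No group overlapped with another in the protease sum, while in the inhibitor sum the doses were close. These sums are given as a description, with no test.

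Of 22 listed protease inhibitors outside the serpin and TIMP families 12 were tested. Against control 5 were higher and 6 lower at 0.5 µg/ml, and over all tested genes 34.4% and 33.1%; the low dose gave 5 higher and 3 lower, and over all tested genes 20.8% and 13.8%. Spink2 and Spink4 encode Kazal-type inhibitors, Spink4 being a product of goblet cells. Spink4 (ENSMUSG00000028415) had 1231 and 1437 TPM in control, 475 and 524 TPM at 0.1 µg/ml and 134 and 159 TPM at 0.5 µg/ml, a graded fall without overlap (log2 fold change -3.11 ± 0.10, edgeR adjusted p = 2.98e-09 at 0.5 µg/ml against control). Spink2 (ENSMUSG00000053030) had 0.06 and 0.11 TPM in control, 3.46 and 4.54 TPM at 0.1 µg/ml and 137 and 158 TPM at 0.5 µg/ml, with 3 control counts. By the ratio of counts Spink2 was 1907-fold higher (exact 95% counting interval 652 to 9252) at 0.5 µg/ml than in control. At 0.5 µg/ml the TPM of both genes lay close together, whereas in control Spink4 was far the higher. Pi16, a peptidase inhibitor, averaged 0.0150, 1.22 and 13.4 TPM in control, at 0.1 µg/ml and at 0.5 µg/ml, with 3 control counts, and by their ratio was 855-fold higher (exact 95% counting interval 292 to 4150.4) at 0.5 µg/ml than in control. Tfpi2, a Kunitz inhibitor of plasmin and trypsin, averaged 13.01, 7.31 and 2.22 TPM and was 5.25-fold lower at 0.5 µg/ml than in control.

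Proprotein convertases cleave ADAM and MMP precursors among others, and of 9 on the list 8 were tested. Against control 2 were higher and 5 lower at 0.5 µg/ml, with the same shares of 34.4% and 33.1% over all tested genes; the low dose gave 2 higher and 4 lower (20.8% and 13.8%). Pcsk6 averaged 9.88, 21.1 and 37.9 TPM in control, at 0.1 µg/ml and at 0.5 µg/ml (log2 fold change 1.99 ± 0.08, edgeR adjusted p = 2.33e-08 at 0.5 µg/ml against control). Pcsk5 averaged 19.9, 14.9 and 4.32 TPM in the same groups and was 4.21-fold lower at 0.5 µg/ml than in control. Pcsk7 averaged 10.3, 11.8 and 12.04 TPM, a small rise (log2 fold change 0.33 ± 0.05, edgeR adjusted p = 0.000321) that no longer passed in either fit to log TPM. Of 16 listed regulators of ADAM and ADAMTS proteases 13 were tested, and 7 were higher and 4 lower than control at 0.5 µg/ml (34.4% and 33.1% of all tested genes); the low dose gave 6 higher and 1 lower (20.8% and 13.8%). Rhbdf1, an inactive rhomboid that carries ADAM17 to the surface, averaged 10.3, 11.4 and 23.7 TPM and was 2.35-fold higher at 0.5 µg/ml than in control (by edgeR, adjusted p = 6.87e-08). Tspan5 and Tspan17 are tetraspanins that bind ADAM10 and moved apart. Tspan5 averaged 7.14, 8.73 and 18.4 TPM and was 2.62-fold higher (by edgeR, adjusted p = 1.2e-07), and Tspan17 averaged 6.34, 6.50 and 3.29 TPM and was 1.69-fold lower. Papln, an ADAMTS-like matrix protein, averaged 34.95, 20.3 and 5.72 TPM and was 5.72-fold lower (by edgeR, adjusted p = 1.11e-09).

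Cathepsins and cystatins, the mainly lysosomal proteases and their inhibitors, numbered 24 on the list, of which 15 were tested, and 6 were higher and 5 lower than control at 0.5 µg/ml, near the 34.4% and 33.1% of all tested genes; the low dose gave 7 higher and 3 lower, beside 20.8% and 13.8%. Cst3, cystatin C, averaged 134, 188 and 416 TPM in control, at 0.1 µg/ml and at 0.5 µg/ml and was 3.31-fold higher at 0.5 µg/ml than in control (by edgeR, adjusted p = 1.11e-08). Ctsd, the aspartic protease cathepsin D, averaged 164, 195 and 375 TPM and was 2.44-fold higher (by edgeR, adjusted p = 1.67e-08). Ctsh, a cysteine protease gene, averaged 53.7, 37.8 and 19.5 TPM and was 2.26-fold lower (by edgeR, adjusted p = 1.01e-05). Ctss, another, averaged 5.60, 7.61 and 3.31 TPM, highest at 0.1 µg/ml and lowest at 0.5 µg/ml.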

How the data were processed

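RNA was measured in 6 libraries, 2 in each of 3 groups. Per the labels' protocols, the kit selects poly-A RNA and keeps the strand, and reads were paired. The submitters' processing notes list the aligner STAR 2.7.3a, the quantifier RSEM 1.3.3, Trim Galore and FastQC. They list the builds GRCm39 and mm10, with neither the one behind these tables nor the strand setting given in the sources used here. The authors deposited expected counts per gene (RSEM's estimated counts, often fractional) together with TPM, 1 column for each library. Reads that fit several similar genes are split by RSEM, so near-identical copies are uncertain.

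GENCODE M21 gave symbols for 52083 of 55416 identifiers (94.0%). Expected counts were rounded, filtered with filterByExpr (16975 genes, 99.96% of the counts) and scaled by TMM. The quasi-likelihood test of edgeR 4.0.16 (R 4.3.3) was fitted once to the 3 groups, which leaves 3 residual degrees of freedom. Tests are two-sided, adjusted by Benjamini-Hochberg over all tested genes, at 0.05. Values after ± are standard errors derived from the F statistic. Folds come from counts and levels from TPM. A gene with no control count is set against 3 counts in each library, which is 0.0414 to 0.0662 CPM; such bounds and the exact 95% intervals cover counting error only.

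The genes and lists were chosen with earlier results of these data known. Genes with full values were, in each family, the 3 largest changes in each direction past the test with at least 5 TPM in a group and no overlap between groups, the 2 highest in TPM, and Plau, Plat and Plaur; from each other list, the 2 largest changes in each direction with at least 5 TPM. Spint1, Spint2 and the remaining family genes were added after their values were seen. Some genes named by this rule enter the counts and are not reported here. Promoters are from RefSeq. Replicates differed by more than sampling noise (chi-square per degree of freedom 8.25 to 9.36). The fit was also run on simulated counts with a fixed spread, in which few genes were changed, evenly in both directions. That run does not cover data in which most genes change. DESeq2 1.42.0, limma 3.58.1 on log2 TPM, other scalings, filters, TPM limits and left-out libraries were tried.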

Additional observations from a re-analysis of the deposited data

How the results depend on the processing

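Over all tested genes, those called at 0.1 µg/ml against control numbered 5881, and 3439 and 3477 in limma fits to log2(TPM + 1) and log2(TPM + 0.1), which hold fewer genes. Leaving out each library in turn gave 3800 to 5248 calls at 0.1 µg/ml against control, lowest without the first 0.1 µg/ml library, 10080 to 11633 at 0.5 µg/ml against control and 8120 to 10269 between the doses. Of the 41 protease and inhibitor genes 37 to 39, 27 to 29 and 31 to 36 were then called in these comparisons. With a limit of 0.5 TPM in place of 1 the test called 50 of 54 genes at 0.5 µg/ml against control, and with 5 TPM all 28. Over all tested genes the share called was 67.5%. The share among all genes at these other limits was not counted, so the counts are a description only. Between the doses the 41 genes split into 16 higher and 17 lower in the fit to log2(TPM + 0.1), with a median log2 fold change of -0.0026, against 19 and 17 and a median of 0.05 by edgeR. Over all genes at 0.5 µg/ml against control, upper quartile scaling gave 5121 higher and 6592 lower calls and the fit to log2(TPM + 1) 3849 and 5127, against 5839 and 5626. No gene called among the 41 turned direction in any alternative run. For the genes and comparisons picked by the rule above, 1457 alternative results kept their call and 27 lost it, the losses being in Adamts15, Prss36, Prss41, Serpinb1a and Pcsk7. Other calls among the 41 genes lie outside this tally, and some were lost too. Both fits to log2 TPM lost Timp2 at 0.5 µg/ml against control and between the doses, and Adamts10 at 0.1 µg/ml against control. Serpinh1 at 0.1 µg/ml against control was lost in every alternative fit. Most genes with full values were picked for large changes past the test in these same data. That choice favours kept calls, so the tally is a description only. Adamts15 at 0.5 µg/ml against control had edgeR adjusted p values of 0.11 without the first control library, and 0.0528 and 0.136 without the first and second library at 0.5 µg/ml. The share of higher calls was 43.7% with upper quartile scaling and 50.9% with TMM.

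The labels number the replicates 1 and 2 in each group without saying what a number marks. Deviations of same-numbered libraries correlated at -0.25 between 0.1 µg/ml and control, 0.17 between 0.5 µg/ml and control, and -0.09 between the doses over 9848 genes. With 2 libraries in a group these values cannot show whether libraries of the same number belong together. With a replicate block the test called 11162 genes for 0.5 µg/ml and 5265 for 0.1 µg/ml against control and 9607 between the doses, and 38, 29 and 36 of the 41 genes.

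Depth limits the folds of Klk10, Klk11, Klk12, Prss35, Serpinb6c and Serpinh1, which had 0 to 4 counts in control.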

Other observations

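Genes of the same families under 1 TPM in every group were not silent in all cases: 40 of the 204 passed the low-count filter, and the genes named here were chosen after their values were seen, so they are given without a p-value. At 0.5 µg/ml against control 17 of the 40 were higher and 12 lower, beside 34.4% and 33.1% of all tested genes, and at 0.1 µg/ml 7 and 5, beside 20.8% and 13.8%. Of 8 metalloproteinases among them 2 were higher and 3 lower at 0.5 µg/ml. Mmp28 (ENSMUSG00000020682) had 0.06 and 0.09 TPM in control, 0.34 and 0.31 TPM at 0.1 µg/ml and 0.61 and 0.57 TPM at 0.5 µg/ml and was 7.55-fold higher at 0.5 µg/ml than in control, and Mmp24 (ENSMUSG00000027612) had 0.11 and 0.08 TPM in control, 0.07 and 0.09 TPM at 0.1 µg/ml and 0.18 and 0.19 TPM at 0.5 µg/ml and was 2.07-fold higher, opposite to Mmp7, Mmp14 and Mmp15. In the kallikrein cluster the neighbours of Klk10, Klk11 and Klk12 were also detected at 0.5 µg/ml. Klk9 (ENSMUSG00000047884) had 0 and 0 TPM in control, 0.07 and 0.07 TPM at 0.1 µg/ml and 0.59 and 0.56 TPM at 0.5 µg/ml, and with no control count it was at least 11.3-fold higher at 0.5 µg/ml. Klk13 averaged 0, 0.0750 and 0.390 TPM in control, at 0.1 µg/ml and at 0.5 µg/ml, and Klk14 averaged 0.0400, 0.0400 and 0.440 TPM. Klk6 averaged 0.135, 0.225 and 0.440 TPM, while Klk5, Klk4 and Klk15 were listed at 0 in every library.

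Serpin genes at low level went both ways. Serpinb8, last in order of the clade B serpins on chromosome 1, where Serpinb5 is first, had 0 and 0 TPM in control, 0.26 and 0.06 TPM at 0.1 µg/ml and 0.42 and 0.78 TPM at 0.5 µg/ml and, with no control count, was at least 19.97-fold higher at 0.5 µg/ml. Serpinb9, the granzyme B inhibitor, had 0.41 and 0.63 TPM in control, 0.31 and 0.25 TPM at 0.1 µg/ml and 0.20 and 0.20 TPM at 0.5 µg/ml and was 2.42-fold lower at 0.5 µg/ml than in control, opposite to its neighbour Serpinb9b. Serpine2, which inhibits thrombin and plasminogen activators, had 0.61 and 0.57 TPM in control, 0.30 and 0.26 TPM at 0.1 µg/ml and 0.12 and 0.09 TPM at 0.5 µg/ml and was 3.76-fold lower. Plau (ENSMUSG00000021822) had 0.64 and 0.91 TPM in control, 0.55 and 0.29 TPM at 0.1 µg/ml and 0.20 and 0.15 TPM at 0.5 µg/ml and was 4.10-fold lower at 0.5 µg/ml than in control, so the urokinase gene and its receptor gene moved in opposite directions. Serping1, the complement C1 inhibitor, had 0.41 and 0.35 TPM in control, 0.06 and 0.07 TPM at 0.1 µg/ml and 0.04 and 0.04 TPM at 0.5 µg/ml, of which 4 counts in all lay at 0.5 µg/ml.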
